A study of Mus musculus with 9 samples.

Results

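The exit of mouse embryonic stem cells (mESC) from the ground state was followed by comparing total RNA of cells kept for 24 h in differentiation medium (DM) with that of cells in ground-state medium (GS), with 3 libraries in each medium. All genes with a mean normalised read count above 5 over the 9 libraries of the series were taken, which were 18156 of the 29069 genes in the table and included 14940 protein-coding genes. The cells were of the D3 line, an established mouse line adapted to growth without feeder cells, at passages 5 to 8, so that 1 line stands behind every value. GS was serum-free N2B27 medium with LIF (leukaemia inhibitory factor) at 20 ng/mL, 1 μM PD0325901, which blocks MEK, and 3 μM CHIR99021, which blocks GSK-3, a mixture known as 2i/L. DM was DMEM with 10% fetal bovine serum and none of these agents. A further medium, NO, was DM with 250 μM of the nitric oxide donor DETA/NO. The loss of both inhibitors, the loss of LIF, the change of the basal medium and the addition of serum coincided in DM and cannot be told apart. Each library came from a dish of its own according to the study's methods, so the p-values measure the spread between dishes of the same line.

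In the ground state, the MEK inhibitor blocks signalling from fibroblast growth factor (FGF) through ERK, the GSK-3 inhibitor stabilises beta-catenin and thereby switches on Wnt target genes, and LIF acts through STAT3. Together they hold mESC in naive pluripotency, the state of the preimplantation epiblast. On release, the cells pass through a formative state resembling the early postimplantation epiblast, in which naive regulators decline, de novo DNA methyltransferases and factors such as Otx2 and Pou3f1 appear, and the general regulators Pou5f1 and Sox2 stay on. Germ layers are specified from this state later.

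Estimated depth, read off the steps between low values, lay between 15500475 and 27064952 assigned reads in the 6 GS and DM libraries. DM replicate 3 stood apart, with a standard deviation of 0.334 around the DM mean on the log2 scale, against 0.207, 0.173 and 0.222 in the GS libraries and 0.224 and 0.213 in the other DM libraries. Its deviations rose with the GC content of the gene (Spearman's rho = 0.564 over 12314 genes), while those of GS replicate 3 fell with it (rho = -0.629). NO replicates 1 and 2 deviated more from the NO mean (0.349 and 0.411), and all 9 libraries share the estimate of spread used below. Over all genes tested, the log2 fold change between DM and GS also rose with GC content (rho = 0.333), and the median GC content was 53.4% in genes higher in DM, 49.7% in genes lower in DM and 50.1% in all. The part of GC content in the results below was not tested otherwise than by a correction for it, and the counts of 24 of the 46 gene lists described below changed without DM replicate 3 or with that correction. These counts are given for lists with at least 3 calls. Values are normalised read counts, and fold changes are differences of log2(value + 1) between the means of 3 DM and 3 GS libraries with their standard error (SE), a scale that understates the change of weakly expressed genes.

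A gene was called changed at a Benjamini-Hochberg adjusted p under 0.05 in limma and at least a 2-fold difference. By this rule 763 genes (4.2% of those tested) changed, 533 higher in DM (2.94%) and 230 lower (1.27%). In all 763 called genes the GS and DM groups did not overlap, so that a lack of overlap gives a call no further support. Of the 763 calls, 384 held in every alternative fit that tested the gene, and 369 were lost when some single library was left out. Genes were grouped by function into 46 lists, 878 genes of which were tested, and 59 of these genes were higher and 35 lower (10.7% called). The calls were spread unevenly over the lists. The formative list had the most calls upwards, with 12 of 20, and the Wnt target list the most downwards, with 7 of 19, whereas 8 lists on stress, sterol handling, replication, mitosis and the two-cell-like state had none, with 16 of their 165 tested genes (9.7%) at an unadjusted p under 0.05 in limma, against 19.9% of all tested genes.

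**Figure D1:**
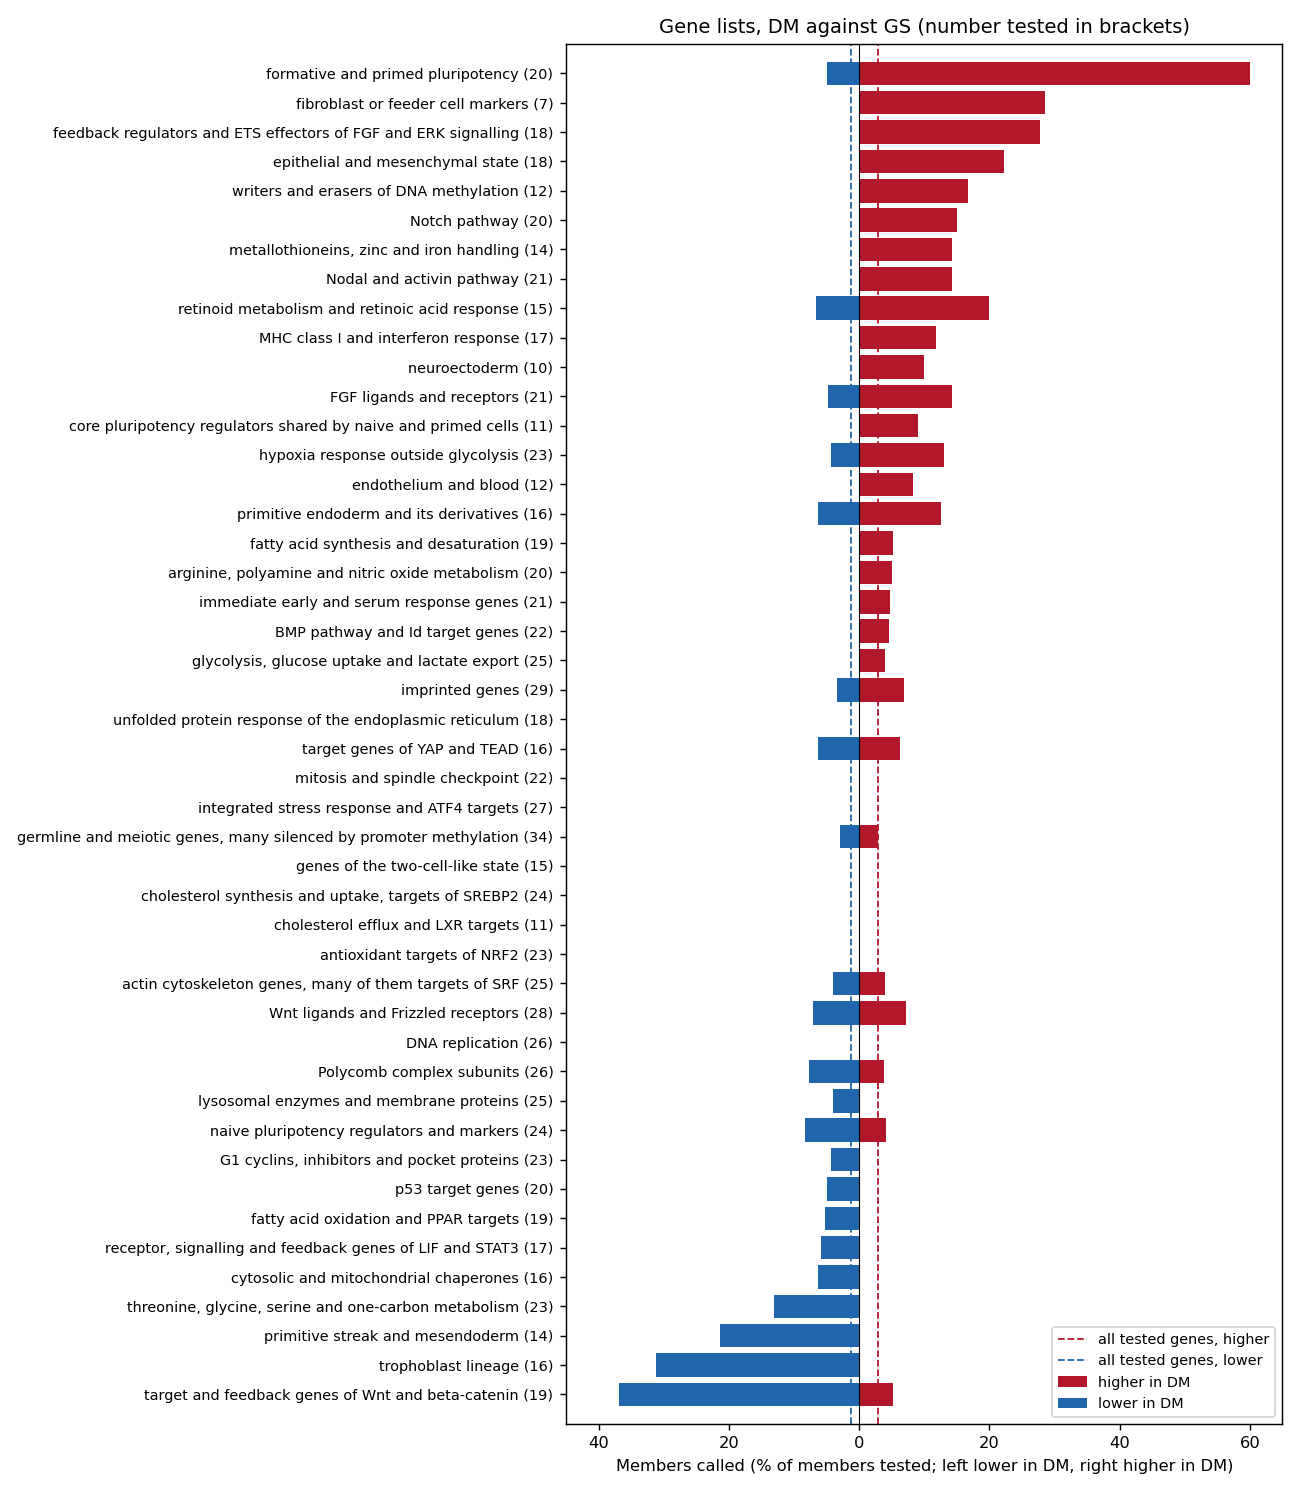
Share of the tested members of each of 46 gene lists that were called higher (red, to the right) or lower (blue, to the left) in DM than in GS, in percent of members tested, with dashed lines at the shares among all tested genes (2.94% higher and 1.27% lower). Formative genes, the 7 tested fibroblast markers and ERK feedback genes stand at the top of the right side, while Wnt targets, trophoblast genes and primitive streak genes stand at the bottom of the left side.

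General pluripotency regulators were not lower in DM. Pou5f1, which encodes Oct4, stood at 12537, 11278 and 11710 in GS and at 15094, 11988 and 15354 in DM. The 2 groups overlapped, with a log2 fold change of 0.25 ± 0.26 (SE, adjusted p = 0.661). Sox2, the partner of Oct4, had values of 3189, 2540 and 2520 in GS against 2292, 3315 and 3859 in DM, and the groups overlapped as well. Of the 11 tested core regulators 0 were lower in limma, also at an unadjusted p under 0.05, and 1 rose. This was Utf1, a chromatin-bound factor of pluripotent cells, which went from 913, 1164 and 609 to 3184, 3497 and 5464, so that the lowest DM library lay above the highest GS library (log2 fold change 2.18 ± 0.32, adjusted p = 0.00198).

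Naive regulators declined in part. Of 24 tested, 2 fell and 1 rose, and the median log2 fold change of the list was -0.21, against -0.0007 over all tested genes. Without DM replicate 3, 1 naive gene was lower and 2 were higher, and with the GC correction 2 were lower and 2 higher. Tfcp2l1, a transcription factor of the naive network that acts downstream of LIF and Wnt (chr1:118627945-118685168, GRCm38), fell from 30965, 31982 and 30213 in GS to 11814, 12742 and 9340 in DM. Its groups were far apart, with a log2 fold change of -1.47 ± 0.18 (adjusted p = 0.000714). Dppa3, a maternal factor that protects methylation marks and is heterogeneous in mESC, fell from 236, 160 and 250 to 81, 42 and 48 (log2 fold change -1.93 ± 0.47, adjusted p = 0.0303). The call of Dppa3 was lost without any one of the GS replicates or without DM replicate 2 or 3 (adjusted p up to 0.131). Nr0b1, an orphan nuclear receptor counted among naive factors, rose from 1455, 1623 and 1811 to 4334, 3621 and 5136 (log2 fold change 1.41 ± 0.21, adjusted p = 0.00229).

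Several of the best known naive factors changed by less than 2-fold. Nanog was at 14041, 12184 and 15465 in GS and at 8190, 8140 and 7596 in DM. Its groups did not overlap and the adjusted p was 0.0311, but the log2 fold change of -0.80 ± 0.19 stayed under the threshold of size. Klf4 had a log2 fold change of -0.59 ± 0.19 (adjusted p = 0.0995), with 3735, 3546 and 2702 in GS and 2384, 2437 and 1805 in DM. Esrrb, a nuclear receptor at the heart of the naive network, gave 16800, 16957 and 14055 against 13659, 13805 and 15641, with overlapping groups. Zfp42, a widely used naive marker also called Rex1, gave 16236, 16394 and 18573 against 22594, 19569 and 20509. Every DM library lay above every GS library, but the adjusted p was 0.512. Each of the last 3 factors exceeded the minimum mean by far in every DM library.

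Many formative genes rose. Of 20 tested, 12 were higher and 1 was lower in DM, with a median log2 fold change of 1.62. Otx2, a homeobox factor that redirects Oct4 to postimplantation enhancers (chr14:48657677-48673819), rose from 378, 314 and 392 to 1582, 1535 and 1685 (log2 fold change 2.15 ± 0.32, adjusted p = 0.00218). Pou3f1, which encodes the POU factor Oct6, went from 16, 23 and 16 to 57, 82 and 78, and its groups did not overlap (log2 fold change 1.93 ± 0.30, adjusted p = 0.00256). Fgf5, the growth factor that classically marks the postimplantation epiblast, was at 0 in all 3 GS libraries and at 22, 11 and 9 in DM. Against a floor of 3 reads per GS library it was at least 4.26-fold higher in DM (adjusted p = 0.0159). Even in DM it was among the weakly expressed genes.

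Zic and Sox members of the list were among the genes that rose. Zic2, a zinc finger factor known from primed pluripotent cells, rose from 91, 92 and 57 to 318, 302 and 360 (log2 fold change 2.05 ± 0.25, adjusted p = 0.000625). Sox4 rose from 90, 87 and 98 to 329, 360 and 549, and Sox11 from 17, 42 and 37 to 155, 164 and 135. Each of these libraries in DM was above each in GS. Grhl2, which opens epithelial enhancers in the formative state, rose from 51, 59 and 57 to 343, 309 and 379 (log2 fold change 2.60 ± 0.29, adjusted p = 0.000339). Sox3 and Zic5 were higher as well, by 1.85 and 1.34 on the log2 scale, and Fgf15, an FGF of the early embryo, rose from 21, 20 and 22 to 111, 109 and 127.

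Not all of the list took part. Nefl, a neurofilament subunit whose exons overlap those of Nefm, fell from 375, 586 and 529 to 173, 146 and 96 (log2 fold change -1.85 ± 0.31, adjusted p = 0.00398). Without DM replicate 3, 9 formative genes were called higher, and with the GC correction 12. Over all alternative fits the number lay between 8 and 13. The calls of Fgf5 (without GS replicate 2 or 3 or DM replicate 1 or 2), Fgf15 (without GS replicate 2 or 3 or any DM replicate), Zic5 (without any GS or DM replicate) and Sox3 (without GS replicate 2 or 3, any DM replicate or NO replicate 3) were lost, with adjusted p up to 0.079, 0.0569, 0.117 and 0.138.

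**Figure D2:**
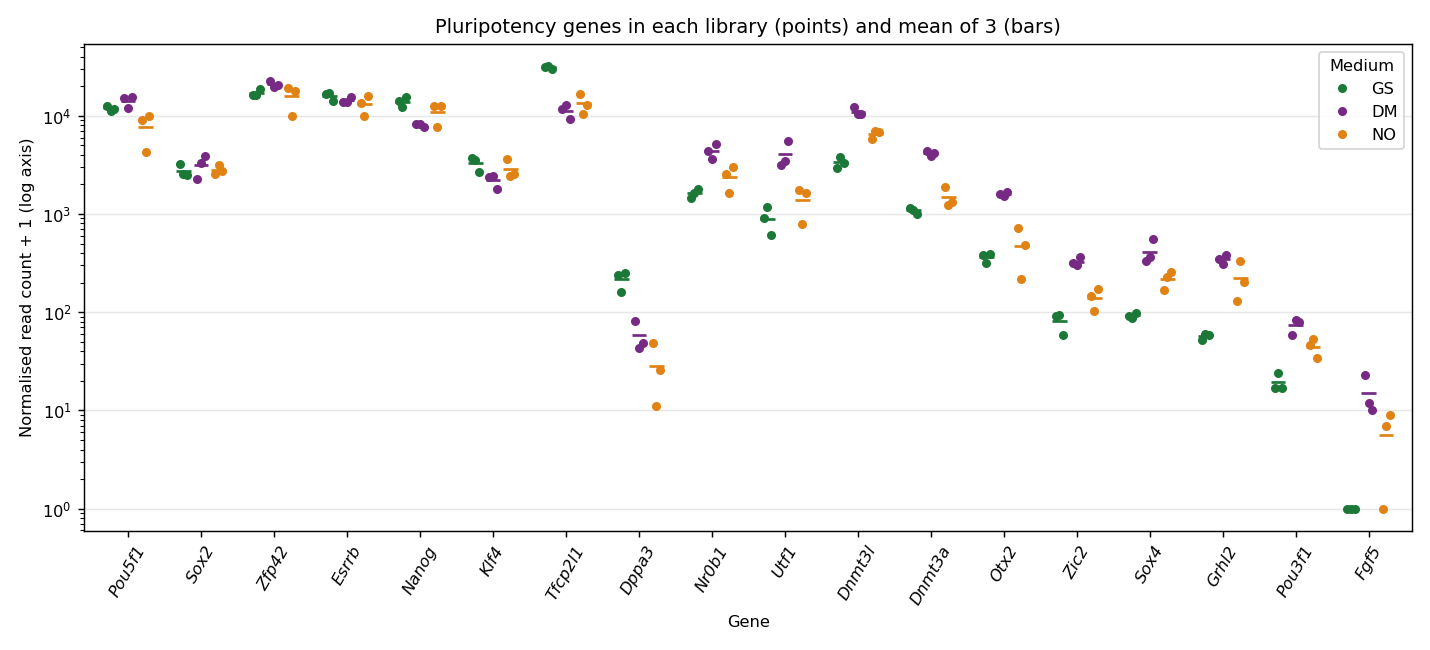
Normalised read counts plus 1 (log axis) of 18 pluripotency genes in each GS, DM and NO library, with points for libraries and short bars for the mean of 3. Pou5f1, Sox2 and Esrrb overlap between GS and DM, and Zfp42 lies slightly higher in DM without a call. Tfcp2l1 and Dppa3 drop in DM, and the genes from Utf1 to Fgf5 rise.

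Genes of de novo DNA methylation rose. Dnmt3a, the de novo methyltransferase of the early embryo (chr12:3806007-3914443), went from 1146, 1103 and 1009 to 4391, 3872 and 4148 (log2 fold change 1.93 ± 0.16, adjusted p = 8.54e-05). Dnmt3l, its catalytically inactive cofactor, went from 2943, 3815 and 3298 to 12314, 10411 and 10297 (log2 fold change 1.72 ± 0.15, adjusted p = 9.69e-05). In both genes the DM libraries were far above all GS libraries. Dnmt3l shares exon sequence with Aire, which had 491, 471 and 376 in GS and 1345, 1660 and 1883 in DM. Dnmt3b, the other de novo enzyme, gave 2201, 2649 and 2202 against 4402, 3939 and 4389. Its adjusted p was 0.00304, but its log2 fold change of 0.86 ± 0.14 was under the threshold of size. Dnmt1, the maintenance enzyme, was at 13212, 13605 and 11329 in GS and 13406, 12479 and 12378 in DM (adjusted p = 0.985). Of the enzymes that oxidise methylcytosine, Tet1 had a log2 fold change of 0.12 ± 0.21 and Tet2 one of -0.29 ± 0.20, and neither passed the test. In total, 2 of 12 genes of this list were higher and 0 were lower. Dnmt3a and Dnmt3b are also members of the formative list.

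Several feedback genes of ERK signalling rose. These genes are switched on by ERK and dampen it in turn, and they are the usual readout of MEK inhibition. Of 18 tested, 5 rose and 0 fell, with a median log2 fold change of 0.88. Spry4, an inhibitor of receptor tyrosine kinase signalling, rose from 685, 1556 and 836 to 4993, 5343 and 5573 (log2 fold change 2.46 ± 0.28, adjusted p = 0.000368). Dusp6, the phosphatase specific for ERK, rose from 300, 507 and 389 to 2090, 1755 and 2194 (log2 fold change 2.36 ± 0.19, adjusted p = 7.21e-05). GS replicate 2 was the highest GS library for both, yet it was still under all DM libraries. Dusp4, a nuclear phosphatase of ERK, rose from 37, 59 and 30 to 326, 281 and 375, and Etv4, an ETS factor induced by FGF, from 654, 998 and 734 to 2261, 2239 and 2072. Their log2 fold changes were 2.98 ± 0.40 (adjusted p = 0.00109) and 1.48 ± 0.19 (adjusted p = 0.000714).

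The fifth call was Dusp5, another phosphatase of ERK, which differed by 1.11 ± 0.29 on the log2 scale (adjusted p = 0.0412), and this call was lost without any one of the GS or DM libraries or without NO replicate 3 (adjusted p up to 0.145). Spry1 (176, 195 and 177 against 368, 323 and 399, adjusted p = 0.00462) and Etv1 (308, 473 and 447 against 824, 786 and 742, adjusted p = 0.0341) passed the threshold of p with log2 fold changes of 0.98 and 0.96, just under that of size. Others did not pass. Etv5, the ETS factor closest to Etv4, was already at 8516, 8496 and 8713 in GS and at 10714, 8821 and 11738 in DM (adjusted p = 0.359). Spry2 gave 2014, 2163 and 2022 against 1942, 1870 and 1838. Dusp1, a phosphatase acting mainly on stress kinases, had a log2 fold change of -0.64 ± 0.30 (adjusted p = 0.258). At an unadjusted p under 0.05, 10 of the 18 genes were higher and 1 was lower. Without DM replicate 3 the list had 4 genes higher.

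Immediate early genes respond to fresh serum within minutes and then decline. Of 21 tested, 1 was called at 24 h (4.76%, near the 4.2% of all tested genes), namely Myc, a growth regulator that is low in 2i/L, which rose from 297, 503 and 339 to 1222, 1046 and 988 (log2 fold change 1.54 ± 0.22, adjusted p = 0.00154). Egr1, a zinc finger factor induced by ERK, was at 16, 13 and 12 in GS and at 36, 32 and 52 in DM. Although its groups did not overlap, the adjusted p was 0.08. Fos had a log2 fold change of 0.75 ± 0.43 (adjusted p = 0.363), and the serum response factor gene Srf one of 0.35 ± 0.19 (adjusted p = 0.334). Of 25 actin cytoskeleton genes, many of them targets of SRF, 1 was higher and 1 lower.

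Target genes of Wnt and beta-catenin fell in part. Of 19 tested, 7 were lower and 1 was higher in DM, and the lower ones included the caudal homeobox gene Cdx1. Sp5, a zinc finger factor that is among the most direct targets of the pathway (chr2:70474923-70477729), fell from 187, 327 and 237 to 1, 5 and 5 (log2 fold change -5.88 ± 0.68, adjusted p = 0.000442). Axin2, the feedback scaffold that rebuilds the destruction complex of beta-catenin, fell from 1356, 1592 and 1307 to 300, 384 and 412 (log2 fold change -1.96 ± 0.30, adjusted p = 0.00261). Both genes separated the media without overlap. Cdx2, the relative of Cdx1, fell from 54, 75 and 46 to 0, 4 and 0 (log2 fold change -5.09 ± 0.69, adjusted p = 0.00115). Rnf43, a ubiquitin ligase that removes Frizzled receptors, fell from 80, 89 and 65 to 11, 14 and 26 (log2 fold change -2.21 ± 0.39, adjusted p = 0.00531). The secreted inhibitor Wif1 was at 18, 19 and 24 in GS and at 2, 0 and 1 in DM (adjusted p = 0.00483).

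Dkk1, another secreted inhibitor, was called lower with an adjusted p of 0.0491, and the call was lost in 14 of 19 other fits, among them those without any one of the GS or DM libraries or without NO replicate 3 (adjusted p up to 0.194). Without DM replicate 3 or with the GC correction, 6 Wnt targets were lower, and over all alternative fits the number lay between 4 and 7. Bmp4 was the member that rose, from 633, 827 and 640 to 1177, 1439 and 1956 (log2 fold change 1.10 ± 0.20, adjusted p = 0.00633), and without DM replicate 3 its log2 fold change was 0.90. Other known targets did not pass. Lef1, a partner of beta-catenin, was at 29, 24 and 16 in GS and 42, 46 and 52 in DM (adjusted p = 0.196), and Ccnd1 had a log2 fold change of -0.02 ± 0.15. Among 28 tested ligands and receptors of the pathway, Wnt5a rose from 1, 6 and 1 to 23, 22 and 27, whereas Wnt5b fell from 249, 294 and 274 to 93, 59 and 98. The receptor gene Fzd10 fell from 1787, 1825 and 1682 to 592, 653 and 805 (log2 fold change -1.38 ± 0.20, adjusted p = 0.0016). Wnt6 was called higher (29, 32 and 21 against 79, 97 and 130), and the call was lost without any one of the GS or DM libraries (adjusted p up to 0.121). In all, 2 of the 28 were higher and 2 lower, and without DM replicate 3 1 was higher.

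**Figure D3:**
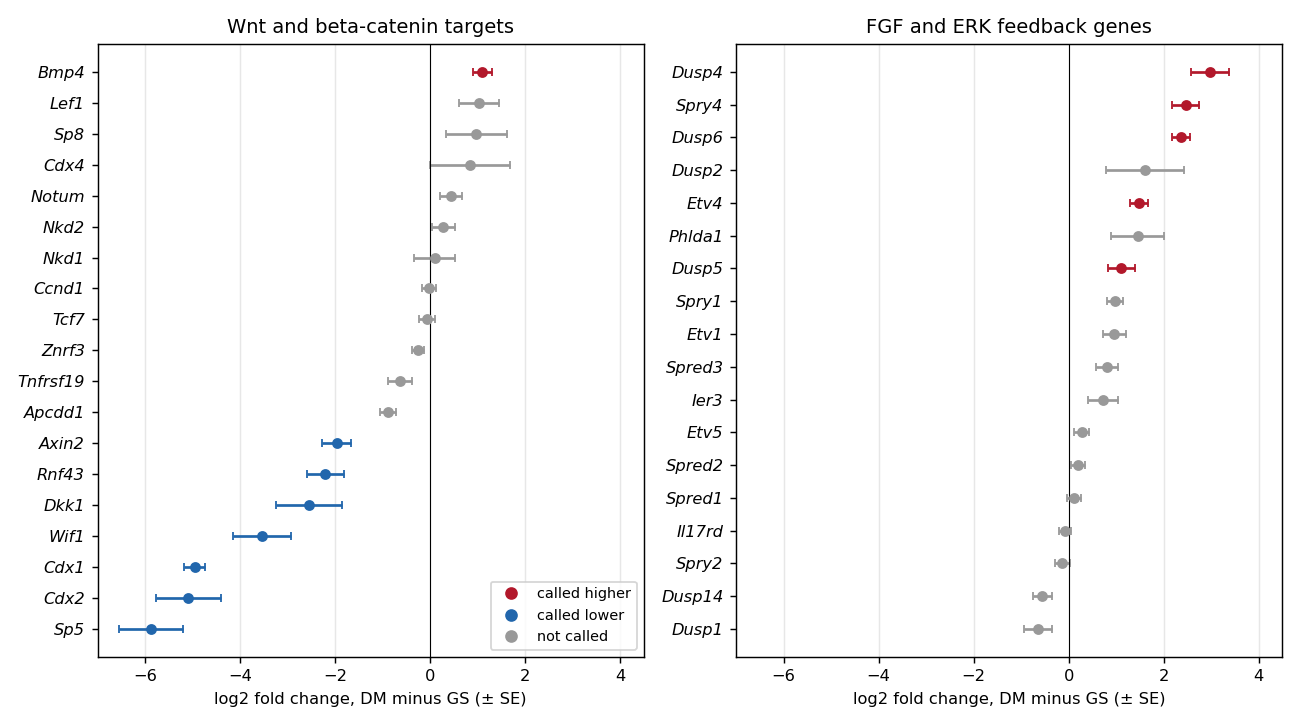
Log2 fold change between DM and GS (± SE) of the 19 tested Wnt and beta-catenin targets (left) and the 18 tested ERK feedback genes (right), with called genes in blue (lower) or red (higher) and others in grey. The 7 lower Wnt targets lie at -1.96 and below, and the 5 higher ERK genes lie at 1.11 and above.

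Promoter sequences of 2 lower Wnt targets are given because, in the 250 bases before the start, Sp5 holds and Axin2 lacks a core motif. It is that of the TCF and LEF factors that carry beta-catenin to DNA. The motif was searched as CTTTGAT on both strands, from 250 bases before to 50 bases after each RefSeq start (GRCm38.p6). The 250 bases before the start of Sp5 (chr2:70474673-70474922, plus strand) and Axin2 (chr11:108920099-108920348, plus strand) read as follows, with the match in capitals.
Sp5: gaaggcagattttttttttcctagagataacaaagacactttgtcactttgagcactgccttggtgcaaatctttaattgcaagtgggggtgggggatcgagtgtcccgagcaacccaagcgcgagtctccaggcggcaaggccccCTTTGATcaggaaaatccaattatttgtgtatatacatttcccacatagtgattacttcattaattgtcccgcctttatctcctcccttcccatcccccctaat
Axin2: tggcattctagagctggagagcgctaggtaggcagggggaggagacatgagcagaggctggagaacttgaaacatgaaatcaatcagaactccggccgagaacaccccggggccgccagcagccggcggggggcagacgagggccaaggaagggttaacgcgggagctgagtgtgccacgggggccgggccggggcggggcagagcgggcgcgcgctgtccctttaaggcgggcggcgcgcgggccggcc
The match in Sp5 began 104 bases before the start. Within the 250 bases before the start, the motif was found in 1 of the 6 lower Wnt targets with a sequence. In the window that ends 50 bases after the start, it was found in 3.73% of all 32851 promoters. Counted by gene, with a match in any promoter, the share was 3.1% of 11521 tested genes. It was 5.37% of the 149 lower genes and 2.79% of the 359 higher genes. A match or its lack in either window is a description of the letters and not of binding.

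In the list of LIF and STAT3 signalling, 1 of 17 tested genes was called (5.88%, near the 4.2% of all tested genes). Socs3, the inhibitor that STAT3 induces, fell from 3012, 2899 and 2621 to 1225, 1404 and 1289 (log2 fold change -1.12 ± 0.12, adjusted p = 0.000288), with no overlap. The other 16 tested genes of the list were not called. Lifr, the receptor gene, was at 1587, 1797 and 1691 in GS and 1916, 2025 and 1709 in DM, and Stat3 itself at 2985, 2988 and 2704 against 2634, 2525 and 2455. The bases before the start of Socs3 (chr11:117969367-117969616, minus strand) are shown since they hold the motif of STAT factors, searched as TTCNNNGAA, in capitals.
Socs3: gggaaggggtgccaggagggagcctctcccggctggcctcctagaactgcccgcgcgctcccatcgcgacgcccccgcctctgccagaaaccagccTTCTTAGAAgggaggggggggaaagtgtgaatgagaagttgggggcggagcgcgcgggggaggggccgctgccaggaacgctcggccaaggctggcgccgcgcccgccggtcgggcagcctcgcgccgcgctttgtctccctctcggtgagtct
The motif lay 154 bases before the start and occurred in 8.3% of all promoters.

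Some genes of the primitive streak and mesendoderm, several of which beta-catenin is known to control, were lower in DM. Of 14 tested, 3 fell and 0 rose, and without DM replicate 3 2 fell. T, which encodes brachyury, the defining factor of early mesoderm (chr17:8434423-8442496), went from 137, 183 and 131 to 10, 1 and 0 (log2 fold change -5.74 ± 0.74, adjusted p = 0.000882). Gsc, a homeobox gene of the organizer, went from 41, 43 and 26 to 9, 4 and 5 (log2 fold change -2.46 ± 0.45, adjusted p = 0.0071). In neither gene did a DM library reach the GS range. Eomes, a T-box factor of the streak and trophoblast, was at 229, 308 and 298 against 111, 170 and 122 (log2 fold change -1.06 ± 0.22, adjusted p = 0.0148), and its call was lost without GS replicate 2 or 3 or DM replicate 1 or 3 (adjusted p up to 0.0777). Mixl1 was at 14, 14 and 20 in GS and 9, 8 and 1 in DM and did not pass (adjusted p = 0.148). The list was not lower throughout. Of its 14 tested genes, 8 had a log2 fold change under 0 and 6 had one above 0, none of the latter called.

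In the trophoblast list 5 of 16 tested genes were lower and 0 higher, Eomes and Cdx2 being shared with the lists above. Without DM replicate 3, 4 were lower, and over all alternative fits between 3 and 6. Tfap2c, an AP-2 factor of trophoblast and germ cells, fell from 326, 262 and 275 to 34, 41 and 52 (log2 fold change -2.75 ± 0.34, adjusted p = 0.000694). Gata2 fell from 177, 101 and 94 to 29, 27 and 22 (log2 fold change -2.16 ± 0.32, adjusted p = 0.00202). Both groups were clearly apart. Cited1, a transcriptional coactivator, fell by 1.65 on the log2 scale, a call lost without GS replicate 1 or 2 or DM replicate 1 or 2 (adjusted p up to 0.0974). Elf5, which defines trophoblast stem cells, was between 2 and 13 in every GS and DM library.

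Defining factors of the other lineages were not called. In the primitive endoderm list, Gata6 was at 15, 5 and 11 in GS and 7, 6 and 11 in DM, and Gata4 at 110, 67 and 78 against 47, 69 and 90, with overlapping groups in both. The members that changed were basement membrane genes. Lama1, a laminin chain, fell from 8149, 7405 and 7918 to 3476, 3465 and 2732, and Col4a1, a collagen IV chain, rose from 313, 381 and 291 to 1245, 1382 and 1026 (log2 fold changes -1.29 ± 0.17 and 1.89 ± 0.30, adjusted p = 0.000922 and 0.00279). Col4a2, the neighbour that pairs with Col4a1, was also called higher, and that call was lost without any one of the GS or DM libraries (adjusted p up to 0.0993), so that without DM replicate 3 1 gene of the list was higher. Of the neuroectoderm list, Sox1 gave 65, 76 and 58 against 63, 73 and 73, and Pax6 5, 2 and 5 against 13, 8 and 13 (adjusted p = 0.184). The 1 call among its 10 tested genes, Neurod1, was lost without any one of the GS or DM libraries or without NO replicate 3 (adjusted p up to 0.15). None of the 15 tested genes of the two-cell-like state was called.

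Homeobox genes of the Hox clusters, which pattern the body axis, had lower values in DM in all 4 clusters, with calls in HoxA, HoxB and HoxC. A difference between clusters was not tested. This group was chosen after its values had been seen. The table held 35 Hox genes, of which 27 were tested, 26 had a log2 fold change under 0 (50.1% of all tested genes did), and the median was -1.23. Their summed level was 1207, 1075 and 1044 in GS and 415, 541 and 479 in DM. The sums did not overlap, and 5 genes (18.5%, against 1.27% of all tested genes) were called lower. Hoxc12 fell from 124, 129 and 114 to 32, 50 and 44 (log2 fold change -1.54 ± 0.25, adjusted p = 0.00314), and its neighbour Hoxc13 from 319, 334 and 304 to 123, 182 and 140 (log2 fold change -1.12 ± 0.27, adjusted p = 0.0295). Hoxb13 fell from 158, 75 and 110 to 26, 29 and 38, and Hoxa7 from 40, 45 and 34 to 14, 7 and 14. Hoxc11 was at 30, 20 and 17 in GS and 5, 8 and 5 in DM (adjusted p = 0.0461). Without DM replicate 3, 3 Hox genes were called, and 6 with the GC correction. Calls were lost for Hoxc11 without any one of the GS or DM libraries (adjusted p up to 0.167), for Hoxc13 without any GS replicate or DM replicate 1 or 3 (up to 0.11), for Hoxa7 without GS replicate 2 or DM replicate 2 (up to 0.0666) and for Hoxb13 without GS replicate 1 (0.0508). Most Hox genes were weakly expressed, which limits each single value.

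**Figure D4:**
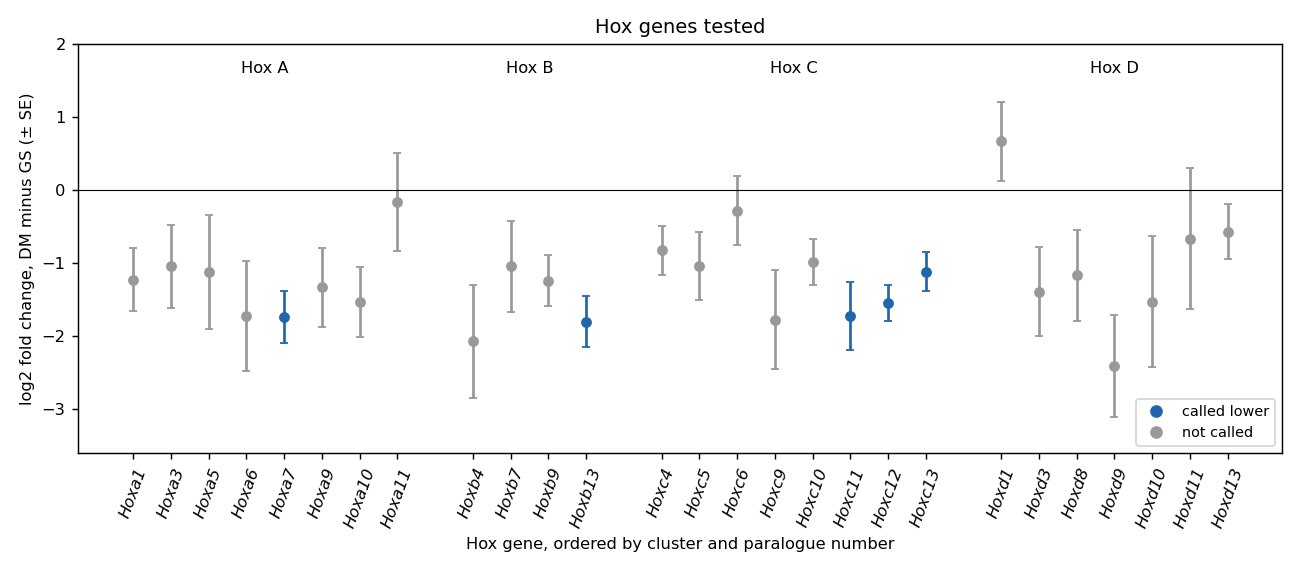
Log2 fold change between DM and GS (± SE) of the 27 tested Hox genes, ordered by cluster and by paralogue number, with the 5 genes called lower in blue and the others in grey. All points but that of Hoxd1 lie under 0, with a median of -1.23.

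In the TGF-beta family, a feedback inhibitor and ligand genes rose. Of 21 tested genes of the Nodal and activin pathway, 3 rose and 0 fell, against 2 higher without DM replicate 3 and 4 with the GC correction. Lefty1, an extracellular inhibitor that Nodal induces, rose from 534, 445 and 537 to 1720, 1274 and 1406 (log2 fold change 1.53 ± 0.27, adjusted p = 0.00566). Inhbb, which encodes a subunit of activin B, rose from 28, 71 and 50 to 293, 335 and 326 (log2 fold change 2.75 ± 0.46, adjusted p = 0.00412). No library of one medium fell among those of the other. Nodal was at 2838, 3044 and 2946 against 2972, 2143 and 2863 (adjusted p = 0.713), and Lefty2, the neighbour of Lefty1, had a log2 fold change of 0.19 ± 0.33 (adjusted p = 0.801). Tgfb1 was called higher (55, 32 and 26 against 82, 93 and 185), a call lost without GS replicate 2 or 3 or DM replicate 3 (adjusted p up to 0.0921). In the BMP list, Id1, the first target of BMP, was at 162, 198 and 163 in GS and 374, 367 and 619 in DM, which did not pass (log2 fold change 1.34 ± 0.38, adjusted p = 0.0593).

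In the FGF list 3 of 21 genes were higher, among them Fgf5 and Fgf15 of the formative list, and 1 was lower. In the Notch list 3 of 20 were higher. Without DM replicate 3, 1 gene of each list was higher and 0 were lower, and with the GC correction 3 FGF genes were higher and 2 lower, and 2 Notch genes were higher. Over all alternative fits between 0 and 4 FGF genes were higher. Fgf4, the main autocrine FGF of mESC, was at 4951, 4605 and 4637 in GS and 5361, 5453 and 4741 in DM (adjusted p = 0.749). Among the other ligands, Fgf17 rose by 1.26 and Fgf10 fell by 1.87 on the log2 scale. The first call was lost without GS replicate 1 or 3 or DM replicate 3 (adjusted p up to 0.0591), the second without any GS replicate or DM replicate 1 or 3 (up to 0.0835). Rbpj, the DNA-binding effector of Notch, rose from 1856, 2007 and 2056 to 4721, 4081 and 3643 (log2 fold change 1.06 ± 0.18, adjusted p = 0.0047), and without DM replicate 1 its log2 fold change was 0.97. Dll1, a Notch ligand, was at 7, 5 and 0 in GS and 52, 59 and 67 in DM, a call lost without GS replicate 3 or DM replicate 2 or 3 (adjusted p up to 0.0553). Hes1, the classical Notch target, had a log2 fold change of -0.40 ± 0.14 (adjusted p = 0.128).

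A receptor and a carrier of retinoic acid rose. Of 15 genes of the retinoid list 3 were higher and 1 lower, against 3 and 0 without DM replicate 3 and 2 and 1 with the GC correction. Rarg, a retinoic acid receptor, went from 921, 1291 and 778 to 3224, 3259 and 3761 (log2 fold change 1.80 ± 0.19, adjusted p = 0.000267). Crabp2, which carries retinoic acid to its receptors, went from 14, 14 and 7 to 49, 58 and 74 (log2 fold change 2.31 ± 0.34, adjusted p = 0.00177). DM lay above GS in all libraries of both. Crabp1, another carrier, was called higher, by 1.08 on the log2 scale, and the call was lost without GS replicate 1 or 2 or DM replicate 1 or 2 (adjusted p up to 0.0958).

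**Figure D5:**
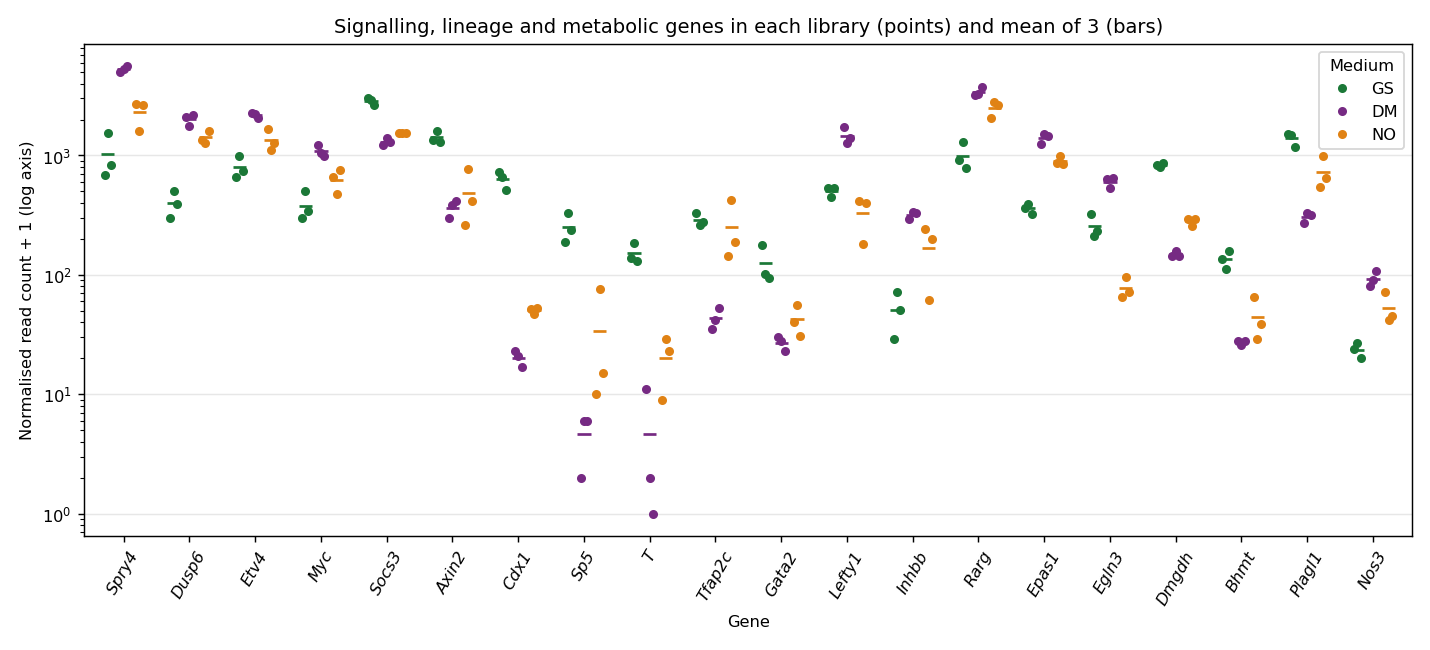
Normalised read counts plus 1 (log axis) of 20 signalling, lineage and metabolic genes in each GS, DM and NO library, with points for libraries and short bars for the mean of 3. DM lies above GS for Spry4, Dusp6, Etv4, Myc, Lefty1, Inhbb, Rarg, Epas1, Egln3 and Nos3, and below GS for the other 10 genes.

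Some epithelial genes rose. Of 18 genes of this list, 4 were higher and 0 lower, and without DM replicate 3 or with the GC correction 3 were higher. Cdh3, which encodes P-cadherin, rose from 663, 529 and 474 to 1562, 1503 and 1565 (log2 fold change 1.49 ± 0.19, adjusted p = 0.000745). Esrp1, a splicing regulator of epithelial cells, rose from 62, 40 and 41 to 272, 221 and 333 (log2 fold change 2.51 ± 0.25, adjusted p = 0.000219). The groups of both were well separated, as were those of Grhl2 above. Crb3, a polarity gene, was called higher (adjusted p = 0.037), and the call was lost without any one of the GS or DM libraries or without NO replicate 3 (adjusted p up to 0.155). Cdh1, the E-cadherin gene, was at 5390, 3556 and 4254 against 2376, 2579 and 3750 (adjusted p = 0.18), and Zeb1, a repressor of epithelial genes, at 337, 404 and 378 against 342, 334 and 253 (adjusted p = 0.418).

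Markers of other cells were summed for a fibroblast and feeder list and for an endothelium and blood list. The lists differ in their members, so their sums are not compared with each other. The second holds Pecam1, which is also in the naive list, and Kdr, which is also in the primitive streak and mesendoderm list. Of 12 fibroblast and feeder markers 7 were tested, their summed level was 468 to 704 in GS and 778 to 934 in DM, and Fap was at 0 in all GS and Postn in all DM libraries. Col1a1, the defining collagen of fibroblasts, was at 21, 13 and 20 against 13, 18 and 20. The 2 members that rose, Mmp2 (204, 145 and 144 against 337, 360 and 481) and Thy1 (59, 59 and 60 against 211, 208 and 168), encode a matrix metalloprotease and a surface glycoprotein. Of 15 endothelial and blood genes in the table, with a summed level of 3166 to 4297 in GS and 2769 to 3045 in DM, Esam alone was called (8, 7 and 11 against 33, 28 and 57). Hba-a1, the alpha-globin gene, was at 0 in all GS libraries and Ptprc, the leukocyte marker CD45, in all DM libraries.

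The metabolic calls included genes of homocysteine methylation. Of 23 genes of threonine, glycine and one-carbon metabolism, 3 fell and 0 rose. Bhmt, which makes methionine from betaine, fell from 136, 112 and 159 to 27, 25 and 27, and its neighbour Bhmt2, a related homocysteine methyltransferase, from 265, 174 and 228 to 39, 41 and 48 (log2 fold changes -2.31 ± 0.31 and -2.34 ± 0.29, adjusted p = 0.00102 and 0.000691). Dmgdh, which oxidises the dimethylglycine that Bhmt releases, fell from 838, 803 and 869 to 144, 158 and 142. In all 3 genes every DM library was far below every GS library. The genes are neighbours, at chr13:93616675-93637961 (Bhmt), chr13:93655720-93674302 (Bhmt2) and chr13:93674433-93752833 (Dmgdh). Tdh, the threonine dehydrogenase on which mESC rely, gave 10855, 13025 and 10054 against 8426, 8073 and 7380 and did not pass (log2 fold change -0.50 ± 0.15, adjusted p = 0.0701). The glycine decarboxylase gene Gldc had an adjusted p of 0.0124 but a log2 fold change of 0.79 ± 0.16.

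Of the genes of glycolysis, 1 of 25 was called, the muscle-type enolase Eno3 (269, 268 and 241 against 637, 576 and 832, adjusted p = 0.00623). Ldha, the lactate dehydrogenase subunit, was at 41923, 32655 and 26785 in GS and 36275, 31699 and 76705 in DM, where DM replicate 3 alone exceeded the GS range. In the hypoxia list, Epas1, which encodes HIF-2alpha, rose from 364, 395 and 323 to 1251, 1508 and 1452 (log2 fold change 1.96 ± 0.14, adjusted p = 2.84e-05), and Egln3, the prolyl hydroxylase that marks HIF for removal, from 321, 212 and 234 to 630, 529 and 649 (log2 fold change 1.25 ± 0.21, adjusted p = 0.0044). Ak4, a mitochondrial adenylate kinase, fell from 4661, 5268 and 5428 to 2606, 2339 and 2365. Of 23 genes of the list 3 were higher and 1 lower, and without DM replicate 3 or with the GC correction 2 were higher. Vegfa and Bnip3, standard targets of HIF, had log2 fold changes of -0.21 ± 0.21 and 0.59 ± 0.18 and were not called. Nos3, the endothelial nitric oxide synthase, was the only called gene of arginine metabolism and rose from 23, 26 and 19 to 79, 90 and 106 (log2 fold change 1.97 ± 0.29, adjusted p = 0.00176). Exons of Nos3 overlap those of Atg9b and Gm15587.

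Lists of stress and growth had few calls. In limma 0 genes were called among 24 genes of cholesterol synthesis, 27 of the integrated stress response, 18 of the unfolded protein response, 23 antioxidant targets of NRF2, 26 of DNA replication and 22 of mitosis. At an unadjusted p under 0.05, which 19.9% of all tested genes reached, there were 3, 5, 1, 1, 1 and 1 of them, and the median log2 fold changes of these lists lay between -0.02 and 0.17. Hspb8, a small heat shock protein, was the exception among 16 chaperones and fell from 1827, 1584 and 1723 to 517, 506 and 459 (log2 fold change -1.79 ± 0.19, adjusted p = 0.000303). Cdkn1a, the cell cycle inhibitor p21 and a target of p53, fell from 3839, 3758 and 3288 to 1462, 1487 and 1976 (log2 fold change -1.15 ± 0.21, adjusted p = 0.0071). It was the only call among 20 p53 targets and among 23 G1 regulators, and Mdm2, another p53 target, had a log2 fold change of -0.33 ± 0.34.

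Chromatin and imprinted genes changed at a few members. The catalytic Polycomb subunit Ezh2 was at 2695, 2741 and 3060 in GS and 2917, 2668 and 2128 in DM, without a call. Phf19, an accessory subunit that guides the complex to its targets, rose from 30, 41 and 28 to 188, 197 and 200 (log2 fold change 2.55 ± 0.26, adjusted p = 0.000228). Cbx8, a subunit that reads the Polycomb mark, fell by 1.64 on the log2 scale, a call lost without GS replicate 2 (adjusted p = 0.0621). Among 29 imprinted genes 2 were higher and 1 lower, against 1 higher without DM replicate 3 and 3 with the GC correction. Plagl1, a zinc finger growth regulator, fell from 1523, 1483 and 1175 to 270, 332 and 314 (log2 fold change -2.18 ± 0.21, adjusted p = 0.000193). Snrpn, a splicing factor gene that shares exons with Snurf and Snhg14, rose from 1112, 944 and 848 to 2521, 2302 and 3230 (log2 fold change 1.46 ± 0.16, adjusted p = 0.000336). H19 and Meg3 were not called, with log2 fold changes of 0.60 ± 0.50 and 0.06 ± 0.14.

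The ion channel gene Trpm1 and the microRNA in its intron fell together. Trpm1 (chr7:64153835-64269775) was at 4125, 3952 and 4436 in GS and 814, 843 and 608 in DM. Mir211, which lies within it (chr7:64205806-64205911), was at 13, 14 and 11 in GS and 0, 4 and 0 in DM (log2 fold change -2.99 ± 0.67, adjusted p = 0.0202). It was the only one of 127 tested microRNA genes to be called, in libraries size-selected for inserts longer than a mature microRNA. The call was lost without any GS replicate or DM replicate 1 or 3 (adjusted p up to 0.0839), and reads of the precursor cannot be told apart from reads of the Trpm1 intron. The mature products of the locus, with the seed (bases 2 to 8) in capitals, are as follows (RefSeq, GRCm38.p6).
mmu-miR-211-5p: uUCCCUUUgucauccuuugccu
mmu-miR-211-3p: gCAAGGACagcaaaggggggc

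Among families that share a symbol stem, 149 of 281 with at least 8 tested members held no call. Over all tested genes, 2.94% were higher and 1.27% lower. The families named below are a selection of those with calls. In the larger Tmem family, for example, 7 of 202 genes were higher (3.47%). Collagens had 6 of 36 higher and 0 lower, one of them the cartilage collagen Col9a2 (23, 32 and 17 against 88, 75 and 68, adjusted p = 0.00464). Semaphorins, guidance proteins, had 4 of 20 higher, such as Sema4a (150, 119 and 134 against 398, 369 and 409) and Sema5b (229, 228 and 153 against 493, 507 and 583). In 3 of 10 sodium and proton exchangers of the Slc9 family the value rose, most in Slc9b2 (40, 58 and 34 against 218, 163 and 242, adjusted p = 0.00145). T-box genes with the stem Tbx had 2 of 9 lower, Tbx18 (69, 131 and 97 against 21, 21 and 7) and Tbx15 (59, 42 and 56 against 17, 14 and 18). The T-box genes T and Eomes, described above, have other symbols and are not in this count. The zinc exporter gene Slc30a2 fell from 1400, 1392 and 1302 to 518, 536 and 614 (log2 fold change -1.30 ± 0.17, adjusted p = 0.000907). In each gene named here the groups did not overlap, as in every called gene.

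Single calls came from further lists. Tead1, the DNA-binding partner of the growth regulator YAP, fell from 3549, 3308 and 3189 to 1278, 1627 and 1182 (log2 fold change -1.31 ± 0.18, adjusted p = 0.00132). Nuak2, a kinase that YAP induces, rose from 146, 160 and 132 to 313, 320 and 364 (log2 fold change 1.18 ± 0.19, adjusted p = 0.00287). The 2 best known YAP targets, Ctgf and Cyr61, were not called, with log2 fold changes of -0.55 ± 0.42 and -0.97 ± 0.52. Lamp2, a membrane protein of lysosomes, fell from 2303, 2054 and 2964 to 1081, 1063 and 903 and was the only call among 25 lysosomal genes. With the GC correction its log2 fold change was -0.98, just under the threshold of size. Fabp5, a fatty acid carrier, fell from 687, 532 and 822 to 338, 302 and 313, and without GS replicate 3 its log2 fold change was -0.93. Lima1, an actin cross-linker, fell with a log2 fold change of -1.04 ± 0.12 (adjusted p = 0.000546), which came under the threshold of size without GS replicate 1 or DM replicate 3 (-0.99 without the latter).

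Other genes with small adjusted p lay outside these lists. S1pr1, the sphingosine-1-phosphate receptor that guides lymphocytes and vessels, fell from 250, 165 and 233 to 7, 8 and 7 (log2 fold change -4.68 ± 0.50, adjusted p = 0.000288). Nlrc4, a sensor of the inflammasome, rose from 64, 54 and 64 to 448, 351 and 365, and Helz2, a nuclear coactivator, from 82, 59 and 50 to 324, 305 and 302 (log2 fold changes 2.65 ± 0.21 and 2.30 ± 0.21). Robo4, a guidance receptor of endothelium, rose from 38, 50 and 38 to 216, 266 and 376, and Ccbe1, a secreted factor of lymphatic growth, fell from 233, 218 and 196 to 36, 45 and 26. Kit, the receptor of stem cell factor, fell from 6239, 6246 and 6247 to 2001, 2011 and 1682 (log2 fold change -1.72 ± 0.17, adjusted p = 0.000219). In the list of interferon and MHC class I genes, H2-D1 and Ddx58 were called higher among 17 tested. H2-D1 lost its call without DM replicate 3 (log2 fold change 0.92) and with the GC correction, and Ddx58 without GS replicate 1 or DM replicate 1 or 2 (adjusted p up to 0.058).

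The NO libraries, which received the same serum medium with the nitric oxide donor, give a further reading of the same genes. Since both comparisons use the DM libraries, the values are only set side by side, and 8.55% of all tested genes were called between NO and DM. Otx2 was at 717, 219 and 485 in NO and Dnmt3a at 1859, 1225 and 1328, nearer to GS than to DM. NO replicate 2 was the lowest of the 3 for both. Sp5 was at 9, 75 and 14, T at 8, 28 and 22 and Cdx2 at 3, 14 and 5, all under the lowest GS library. Tfap2c was at 144, 426 and 186 in NO and thus overlapped GS. Dusp6 was at 1356, 1282 and 1615 and Socs3 at 1540, 1535 and 1532, so that for both the NO libraries lay on the DM side of GS. Egln3 was at 64, 95 and 71, under all GS and DM libraries.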

How the data were processed

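Groups and replicate numbers came from the labels, and each column was assigned to the sample whose title it carries. Per the methods of the study and the submitters' processing notes, RNA depleted of ribosomal RNA was read on the Ion Torrent Proton platform, and reads were trimmed (Reaper), aligned to GRCm38 (STAR 2.4.0a), counted over exons (featureCounts 1.4.5-p1) and normalised (DESeq2). Reads shared by several genes or regions were left out, and whether strand was used was not given in the sources used here, so overlapping genes are uncertain. The deposited values are treated as a score: normalised counts which the authors had rounded to whole numbers, so no count model was fitted. In the GS and DM libraries 1 read was worth between 0.7009 and 1.3231, estimated from the steps between low values.

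The limma package (version 3.58.1, R 4.3.3) was run on log2(value + 1) of the 18156 genes with a mean above 5, with all 9 samples, 3 groups, no covariate and moderation with a mean-variance trend. Tests were two-sided with Benjamini-Hochberg adjustment over all these genes. Calls needed an adjusted p under 0.05 and a log2 fold change of 1 or more in either direction. The procedure was tested on simulated data. Genes were named by a rule. From each of 46 lists it took the first 3 members, called or not, and up to 5 called members in each direction, by size of change among genes whose groups did not overlap. From families of symbols it took up to 3 in each direction, and over all genes the 15 with the smallest adjusted p in each direction, without clone names. Genes outside the rule were chosen after their values were seen, namely Aire, Dnmt1, Dusp1, Etv1, Fap, Hba-a1, Hotair, Lef1, Nefm, Postn, Ptprc, Spry1, Spry2, Tet1, Tet2, Zfp42, Zic2, Zic5 and the Hox genes. The rule for families covers Col9a2, Mir211, Rnf43, Sema4a, Sema5b, Slc30a2, Slc9b2, Sox3, Sox4, Tbx15 and Tbx18. Which of the genes picked by that rule to describe was chosen after their values were seen. The lists and comparisons were chosen with earlier results of these data known. Of 952 genes in lists, 943 were in the table and 878 were tested. Alternatives changed the pseudocount, the minimum mean, the minimum fold change, the samples, the scaling or the moderation, added a replicate block, or left out each library. A lowess correction for the GC content of each gene's longest transcript was added after seeing the data. Coordinates are from GENCODE M21 (GRCm38) and sequences from RefSeq (GRCm38.p6). The deposited column of row sums was left out, and some single genes are not reported here.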

Additional observations from a re-analysis of the deposited data

How the results depend on the processing

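With a minimum mean of 50 in place of 5, 505 genes were called, 346 of them higher, since fewer genes were tested. With no minimum fold change 1215 genes passed, 421 of them lower, and with a minimum log2 fold change of 2 the numbers were 242 in all, 165 higher and 77 lower, and among list genes 36 in all, 21 higher and 15 lower. Leaving out 1 library at a time gave 509 to 962 calls, 322 to 666 of them higher and 163 to 296 lower, and among list genes 39 to 71 higher and 28 to 39 lower. The lowest numbers of higher genes came without DM replicate 3 (322), GS replicate 3 (351) and DM replicate 1 (351), and without DM replicate 3 39 list genes were higher. The most calls (962) came without NO replicate 2, and a fit of only the 6 GS and DM samples called 908. Quantile normalisation called 627 genes, 62.4% of them higher, against 69.9% in the reported fit. The GC correction called 735, of which 651 were shared with the reported calls. Other settings stayed within 1.5 times of the reported counts of called genes. Among list counts of 4 or more, 103 of 110 comparisons over all settings did so. No named gene that was called in the reported or the alternative fit reversed its direction. Some named genes without a call changed sign between fits, such as Sox1 (log2 fold change from -0.10 to 0.18) and Gata6 (from -0.66 to 0.05). Same-numbered GS and DM libraries did not deviate together (correlations -0.453, 0.0657 and -0.493). Their deviations also followed GC content, with opposite signs in replicate 1 (rho = 0.479 in GS and -0.495 in DM) and replicate 3 (-0.629 and 0.564). These correlations therefore cannot show whether the replicate numbers paired the samples. A fit with the replicate block called 674 genes, 660 of them shared with the fit without the block. Fgf5, at 0 in every GS library, and Wif1, at 2, 0 and 1 in DM, are limited by the number of reads.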

Other observations

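Small nucleolar RNAs, which guide the modification of ribosomal RNA, tended to lower values in DM without a call. Of 287 tested, 250 had a log2 fold change under 0 and the median was -0.50, while 0 were called in limma and 26 were lower (9.06%, against 8.65% of all tested genes) and 1 higher at an unadjusted p under 0.05. Their summed normalised count was 602687, 814475 and 980610 in GS and 706208, 706425 and 416010 in DM. The GS and DM groups overlapped, and the lowest sum was that of DM replicate 3. The part of library preparation in these values was not tested.

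Further lists held calls of weakly expressed genes. In the germline list, whose members are often silenced by promoter methylation, Mael, a factor of the piRNA pathway, was at 35, 25 and 15 in GS and 62, 60 and 47 in DM (adjusted p = 0.048), and Dazl, an RNA-binding protein of germ cells, at 160, 170 and 237 against 109, 107 and 51 (adjusted p = 0.0603). The call of Mael was lost without GS replicate 2 or 3, any DM replicate or NO replicate 3 (adjusted p up to 0.182). The transferrin gene Trf, whose exons overlap those of Gm20425, was at 8, 5 and 3 in GS and 18, 18 and 39 in DM, a call lost without GS replicate 2 or 3, any DM replicate or NO replicate 3 (adjusted p up to 0.132), and Mt3, a metallothionein, at 11, 11 and 5 against 24, 38 and 88, a call lost without GS replicate 2 or 3 or DM replicate 2 or 3 (adjusted p up to 0.105). The abundant metallothionein gene Mt1 was at 1753, 1690 and 917 against 794, 955 and 1711, so its groups overlapped. In the list of fatty acid synthesis, Mid1ip1, an activator of acetyl-CoA carboxylase whose exons overlap those of Gm14493, was at 56, 34 and 45 in GS and 87, 83 and 112 in DM, a call lost without GS replicate 2 or 3 or any DM replicate (adjusted p up to 0.126), and Fasn, the fatty acid synthase, had a log2 fold change of -0.15 ± 0.15 (adjusted p = 0.636). The antisense RNA of the HoxC cluster, Hotair, chosen after its values were seen, was at 34, 30 and 36 in GS and 8, 7 and 0 in DM (log2 fold change -3.04 ± 0.71, adjusted p = 0.0253), a call lost without any one of the GS replicates (adjusted p up to 0.103).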
